A study of Mus musculus with 12 samples.

Results

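The loss of mGluR5 was examined in the striatum of mice that carried the control Q20 allele of the Huntington's disease gene, by comparing 3 whole-transcript arrays labelled HdhQ20/Q20 and mGluR5-/- with 3 labelled HdhQ20/Q20/mGluR5+/+. These 6 arrays are those of the 12 in the series that carry the Q20 allele, and they were chosen by their labels alone. The other 6 come from HdhQ111/Q111 mice, which have the expanded allele on both chromosomes, again 3 with and 3 without mGluR5. Every animal was a male of 90 days on a mixed background of 129, CD-1, C57BL/6 and FV, and both Q20 groups are homozygous for the knock-in, so that the controls are not wild-type for the Htt gene. In this design, strain alleles that differ between the groups cannot be told apart from the loss of the receptor. The labels do not say whether the arrays of a group come from separate animals, so the p-values cover only how much these arrays vary, which may be technical variation.

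mGluR5, encoded by Grm5, is a group I metabotropic glutamate receptor. It couples through Gq to phospholipase C, the release of calcium from internal stores and protein kinase C, and is held at the postsynaptic density by Homer and Shank scaffolds. In the striatum it is abundant in the projection neurons, the inhibitory cells that make up most of this tissue, where it takes part in endocannabinoid release and in long-term synaptic plasticity.

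All values are log2 signals, on which a difference of 1 is a doubling, and differences are given as Q20 mice without mGluR5 minus Q20 mice with it, with the standard error of the fit. Array medians lay between 7.05 and 7.16 over the 12 arrays. Each array's 25th percentile, the level of the filter on dim genes, lay between 5.69 and 5.94, and group means below it are not told from background. The tissue label was compared with its markers. The 7 analysed markers of projection neurons (Ppp1r1b, Drd1, Drd2, Penk, Tac1, Rgs9 and Bcl11b) lay between 10.78 and 13.01 on the 12 arrays, and their mean was 11.61 to 11.69 in Q20 mice with mGluR5 and 11.68 to 11.71 in those without. The 4 thalamus markers Tcf7l2, Slc17a6, Rora and Prkcd averaged 7.5 to 8.14 with mGluR5 and 7.33 to 7.53 without it. The highest value was that of replicate 1 with mGluR5, in which Slc17a6 stood at 6.94 against 5.46 to 6.00 on the other 5 arrays and Prkcd at 8.45 against 7.06 to 7.88. Ttr, the main transcript of the choroid plexus, ranged from 6.47 to 8.54 with mGluR5 and from 7.25 to 9.28 without. The part of these markers in the results was not tested, and the count of changed genes is given below without replicate 1.

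Grm5 (Entrez 108071, chromosome 7) was read first as the check of the labels. Its signal was 11.95, 12.08 and 11.97 in Q20 mice with mGluR5 and 11.06, 10.93 and 11.17 in those without. The knockout arrays were all lower, and the groups were 0.78 apart. The fall was -0.94 ± 0.09, or 1.92-fold (limma, adjusted p = 0.000189), and Grm5 was called in each of the 20 alternative settings, at -1 to -0.88. The signal left in the knockouts lay far above the filter level. The files do not show how many of its probes fall within the deletion, and probes outside it do not check the knockout. Htt (Entrez 15194), which both groups carry as the same knock-in, differed by -0.03 ± 0.08 (adjusted p = 0.998), with overlapping groups.

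A small set of genes changed with the receptor. Of 16721 tested genes 50 were called at a limma adjusted p below 0.05, 0.299% of all. Of these, 23 were higher without mGluR5 (0.138%) and 27, Grm5 included, were lower (0.161%). The change was at least 1.5-fold in 42 and at least 2-fold in 8, of which 5 rose (Cfap54, Serpina3n, Rpl34, Aldh7a1 and Hpgd) and 3 fell (Dnah6, Nt5dc3 and Pcdhb6). In all 50 the 3 arrays of one group lay above the 3 of the other. Such separation held for 2142 tested genes in all (12.8%). Before adjustment 1007 genes had a p below 0.05. Chromosomes 6 and 8 held 6 called genes each, 0.719% and 0.697% of their tested genes. Chromosome 18 held 4 of 419, or 0.955%, the highest share of any chromosome, against 0.299% over all. The median change over all genes was 0.02, and 57% of the changes were positive. The number called depended on single arrays. It was 40 without replicate 1 of the mice with mGluR5, 30 without their replicate 2 and 25 without their replicate 3, and it was 26, 31 and 41 without replicates 1, 2 and 3 of the knockouts. Named with their values below are 46 of the 50. The other 4 are the miRNA genes Mir485 and Mir665, the predicted gene Gm19410 and the long non-coding RNA gene A230056P14Rik, which the naming rule leaves out. All but Gm19410 are described below because of their position.

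**Figure D1:**
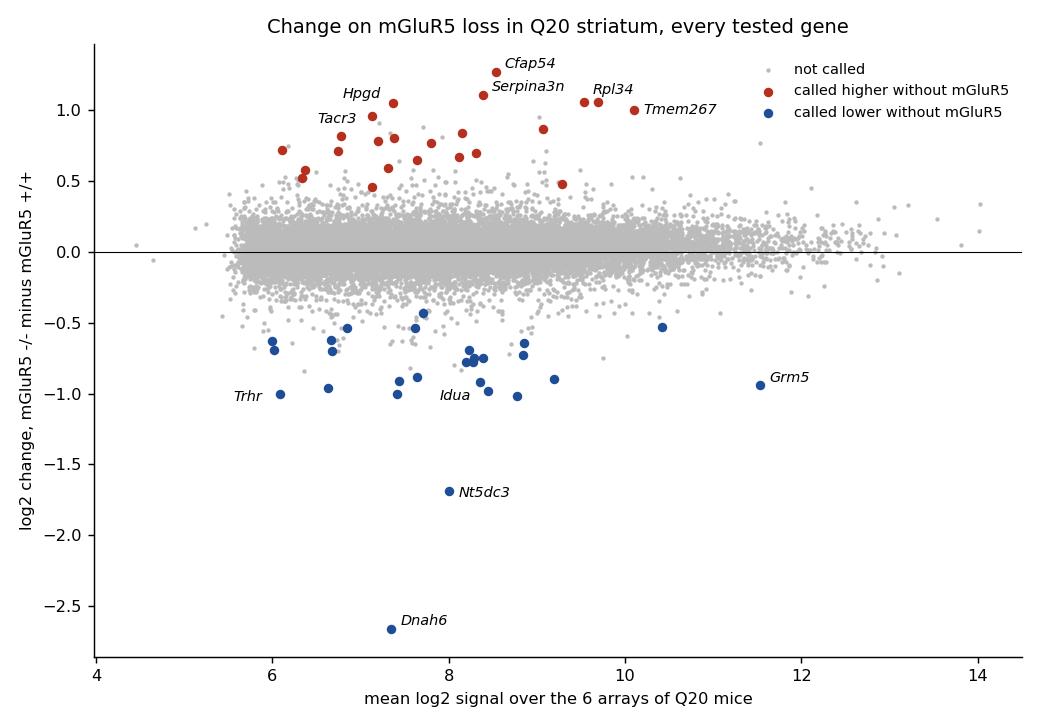
Change on mGluR5 loss in Q20 striatum (log2, vertical axis) against the mean log2 signal over the 6 arrays of Q20 mice (horizontal axis) for the 16721 tested genes, with called genes in colour. The 23 higher and 27 lower genes surround a cloud whose median is 0.02, and Dnah6 and Nt5dc3 lie farthest below it.

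The largest change of all was in Dnah6 (Entrez 330355, chromosome 6), a heavy chain of the dynein motors that bend motile cilia. Its signal was 8.45, 8.72 and 8.87 in mice with mGluR5 and between 5.96 and 6.09 on the 3 knockout arrays, close to the filter level. The fall was -2.66 ± 0.13 (6.33-fold, limma adjusted p = 6.5e-08), and the groups were 2.36 apart. The gene has 2 further probe sets, which fell by 2.57 and by 2.03. Cfap54 (Entrez 380654, chromosome 10), a protein of the ciliary central apparatus, moved the other way. It stood at 7.87, 8.08 and 7.74 with mGluR5 and at 8.98, 9.05 and 9.48 without, a rise of 1.27 ± 0.15 (2.41-fold, adjusted p = 0.000558). The knockout arrays were all higher, by at least 0.90. A second, dimmer probe set of Cfap54 gave 0.53. Both genes remained called with any of the 6 arrays left out. Cfap54 was not called by the linear model without moderation (adjusted p = 0.0553).

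No other gene on the list for motile cilia passed the test. Of 48 tested genes for axonemal dyneins and other cilium parts, Dnah6 and Cfap54 were called and the rest not, against 0.299% over all genes. In this list 33 were negative, with a median of -0.04 against 0.02 over all genes. Without replicate 1 of the mice with mGluR5 the median was 0. Cfap46 stood at 0.47 ± 0.10 (adjusted p = 0.0783) and the dynein heavy chain Dnah3 at -0.29 ± 0.12 (adjusted p = 0.743). Of the 3 ependymal markers fixed for the tissue check, Foxj1, the transcription factor that switches on motile cilia, ranged from 7.06 to 7.21 with mGluR5 and from 6.99 to 7.20 without. None of the 8 tested genes of the ependymal list was called, where Tmem212 gave -0.13 ± 0.11 and Ccdc153 gave 0.14 ± 0.11.

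The stretch before the start of Dnah6 is shown because this gene changed most and all its probe sets moved together. Genes of motile cilia are known to be bound by RFX factors at the X-box, a pair of inverted half-sites. The 250 bases upstream of the RefSeq start (chr6:73221632-73221881 in GRCm38.p6, minus strand) hold a match to the X-box letters searched, GTTGC and GCAAC with any 3 bases between them, which read alike on both strands. It is printed in capitals, at bases 215 to 227, and 23 bases separate it from the start.
Dnah6 promoter: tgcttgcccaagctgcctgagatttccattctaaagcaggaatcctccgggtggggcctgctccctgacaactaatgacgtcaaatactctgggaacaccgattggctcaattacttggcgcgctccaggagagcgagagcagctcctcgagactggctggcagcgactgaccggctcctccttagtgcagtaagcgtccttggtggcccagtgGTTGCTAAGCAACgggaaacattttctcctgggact
Such a match occurs in 74 of 32851 RefSeq promoter windows of 300 bases (0.225%), and in 1 of the 32 called genes that have a window, namely Dnah6. A match describes these letters and does not show binding.

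**Figure D2:**
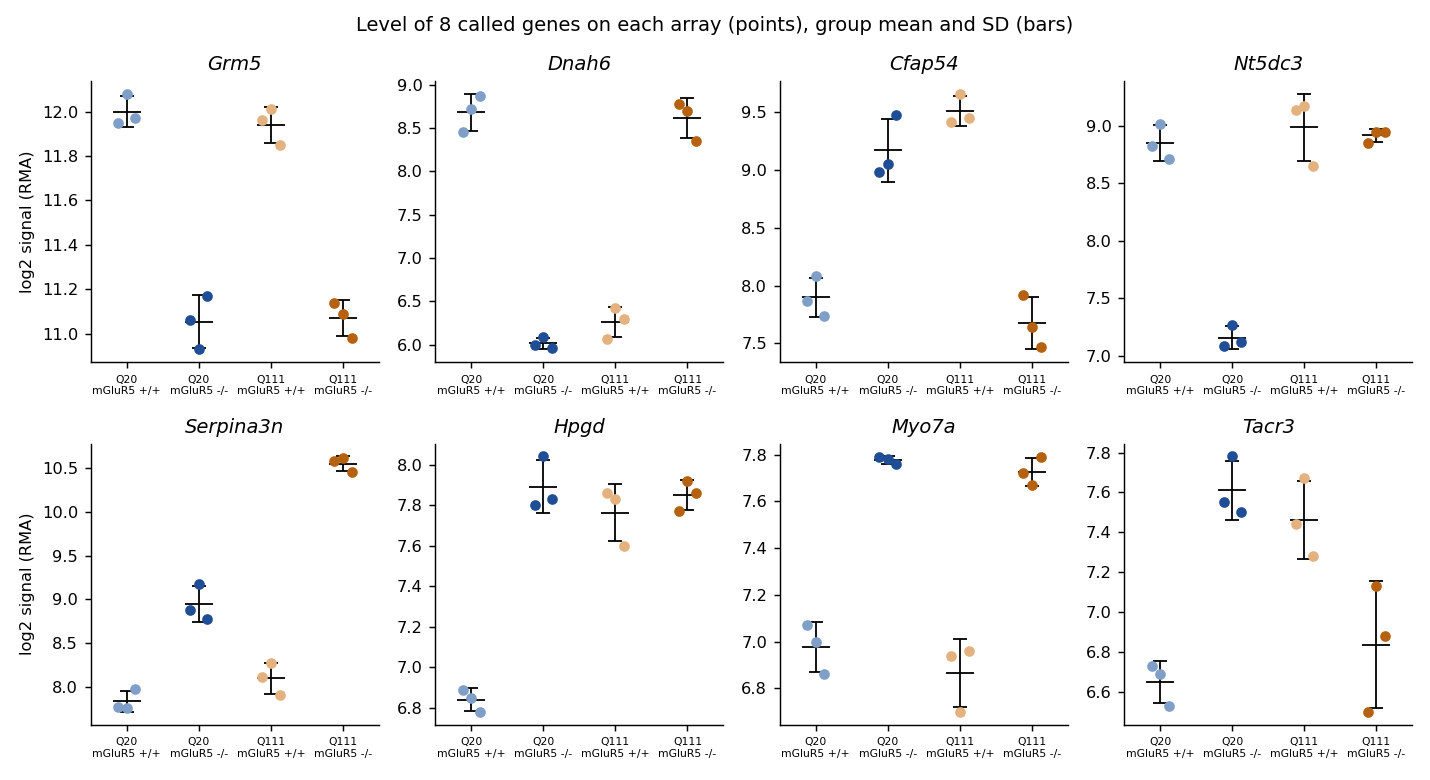
Log2 signal of 8 called genes on each of the 12 arrays (points), with the group mean and SD (bars), for Q20 and Q111 mice with and without mGluR5. Grm5 falls in both Htt genotypes, Dnah6 and Cfap54 move in opposite directions in the 2 genotypes, and Hpgd is low in Q20 mice with mGluR5 alone.

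Several of the other large changes were in enzymes. Nt5dc3 (Entrez 103466, chromosome 10), a member of the 5'-nucleotidase domain family, was 8.82, 9.02 and 8.71 with mGluR5 and 7.08, 7.27 and 7.12 without. It fell by 1.69 ± 0.13 (3.23-fold, limma adjusted p = 1.11e-05), and its groups were 1.45 apart. Idua (Entrez 15932, chromosome 5), the lysosomal iduronidase that degrades heparan and dermatan sulphate, was 8.81, 9.11 and 8.90 with mGluR5. Without it the values were 7.98, 7.85 and 8.04, a change of -0.98 ± 0.10 (adjusted p = 0.000384) with no overlap. Hpgd (Entrez 15446, chromosome 8), which inactivates prostaglandins by oxidation, rose by 1.05 ± 0.10 (adjusted p = 0.000127). It was 6.89, 6.85 and 6.78 with mGluR5 against 7.80, 8.04 and 7.83 without, a gap of 0.92. These 3 genes were called with any of the 6 arrays left out.

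Higher without mGluR5 were also Aldh7a1, an aldehyde dehydrogenase of lysine breakdown (1.06 ± 0.19), Timmdc1, an assembly factor of respiratory complex I (0.87 ± 0.14), Fut10 of the fucosyltransferase family (0.82 ± 0.11) and the carboxypeptidase Cpq (0.77 ± 0.11). The mitochondrial depalmitoylase Abhd10 (0.70 ± 0.12), Npl, the lyase that breaks down sialic acid (0.67 ± 0.11), and Xdh, which oxidizes purines to urate (0.52 ± 0.09), were higher as well. Lower were the retinoid isomerase Rpe65 (-0.69 ± 0.12), the extracellular superoxide dismutase Sod3 (-0.62 ± 0.12), the mitochondrial methionine aminopeptidase Metap1d (-0.54 ± 0.10) and Entpd2, which splits extracellular ATP (-0.43 ± 0.08). The knockout mean of Rpe65 lay below the filter level, so that its fall has no exact size. The adjusted p of these 11 genes lay between 0.00346 (Fut10) and 0.0381 (Entpd2).

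Receptors, channels and transporters changed in both directions. Among the neuropeptides and their receptors 2 of 39 tested genes were called, against 0.299% of all tested genes. The median over the list was 0.03. The list holds the somatostatin receptors Sstr1 to Sstr4 but not Sstr5, which was called too and is given below. Tacr3 (Entrez 21338, chromosome 3), the receptor of neurokinin B, was 6.73, 6.69 and 6.53 with mGluR5 and 7.55, 7.78 and 7.5 without. It rose by 0.96 ± 0.15 (limma adjusted p = 0.00692), with a gap of 0.77 between the groups, and without replicate 3 of the mice with mGluR5 its adjusted p was 0.0562. Trhr (Entrez 22045, chromosome 15), the receptor of thyrotropin-releasing hormone, was 6.20, 6.85 and 6.70 with mGluR5 and between 5.22 and 5.77 without. The fitted change was -1 ± 0.19 (adjusted p = 0.0402). The knockout mean lay below the filter level, so that the fall has no exact size. Its call was lost when any array but replicate 1 of the mice with mGluR5 was left out, with adjusted p = 0.213, 0.212, 0.0809, 0.0787 and 0.152 without replicates 2 and 3 of those mice and replicates 1, 2 and 3 of the knockouts. The opioid precursor gene Pdyn stood at 0.43 ± 0.15 (adjusted p = 0.513) and the peptide gene Cck at -0.36 ± 0.13 (adjusted p = 0.563), neither of which passed.

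The somatostatin receptor Sstr5 was higher without mGluR5 (0.58 ± 0.11), as was C3ar1, the receptor of the complement fragment C3a (0.59 ± 0.11). Ptger4, a receptor of prostaglandin E2, was lower (-0.54 ± 0.10). Also lower were Kcnn2, the SK2 potassium channel opened by calcium (-0.69 ± 0.11), the peptide transporter Slc15a2 (-0.75 ± 0.12) and the transporter Slc38a11 (-0.63 ± 0.11), the last to below the filter level, so that its size is not exact. For these 6 genes the adjusted p lay between 0.0074 (Slc15a2) and 0.0315 (Sstr5).

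The clustered beta protocadherins, homophilic adhesion proteins whose combinations differ between neurons, had 2 called members of 22, both lower. Over all tested genes 0.299% were called. Pcdhb6 (Entrez 93877, chromosome 18) was 8.86, 9.54 and 9.47 with mGluR5 and between 8.21 and 8.33 without, a change of -1.02 ± 0.17 (limma adjusted p = 0.0123). The groups were 0.53 apart, and the arrays with mGluR5 spread more widely than the knockouts. Pcdhb3 was 6.82, 7.42 and 7.10 with mGluR5 and 6.04, 6.55 and 5.86 without, a change of -0.96 ± 0.19 (adjusted p = 0.0404). Both calls were lost when replicate 2 or 3 with mGluR5 or replicate 1 or 3 without it was left out, with adjusted p = 0.055 to 0.0918 for Pcdhb6 and adjusted p = 0.158 to 0.213 for Pcdhb3. Over the cluster 18 of 22 members were negative, with a median of -0.29 against 0.02 over all genes, and 18 were negative under median centring and quantile normalization too. The mean over the cluster was 7.41, 7.79 and 7.81 with mGluR5 and 7.34, 7.5 and 7.23 without, so that replicate 1 with mGluR5, the array with the highest thalamus markers, lay within the knockout range. Next in order of p were Pcdhb11 (-0.60 ± 0.12, adjusted p = 0.0599) and Pcdhb10 (-0.54 ± 0.12, adjusted p = 0.0737), which did not pass in the main fit. In the fit on the 6 arrays of Q20 mice alone Pcdhb11 passed (adjusted p = 0.0398). Pcdhb10 passed without replicate 1 with mGluR5 (adjusted p = 0.0229). In Q111 mice the median of the same 22 genes on mGluR5 loss was 0.11. The members are close in sequence, and the array may not separate them fully.

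Glial and vascular genes changed in a few members. Serpina3n (Entrez 20716, chromosome 12), a secreted protease inhibitor known as a mark of reactive astrocytes, was 7.77, 7.76 and 7.97 with mGluR5 and 8.88, 9.18 and 8.78 without. It rose by 1.11 ± 0.12 (2.16-fold, limma adjusted p = 0.000384), with 0.81 between the groups. It was the sole called gene among 26 tested reactive astrocyte genes, whose median was 0.06, while 0.299% of all tested genes were called. Gfap, the intermediate filament of astrocytes, was 9.01, 8.66 and 8.53 with mGluR5 and 8.33, 8.63 and 8.58 without, so that the groups overlapped (-0.22 ± 0.14, adjusted p = 0.955). None of 15 astrocyte markers was called, with a median of 0.05.

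Among 24 vascular markers Abcc9, the SUR2 subunit of potassium channels in pericytes and smooth muscle, was called. It was 6.85, 6.87 and 6.96 with mGluR5 and 7.33, 7.36 and 7.37 without, a rise of 0.46 ± 0.08 (limma adjusted p = 0.0203). The call was lost when any array was left out, with adjusted p = 0.0605 to 0.107. The list's median was 0.07, and its 1 call of 24 stands beside 0.299% called over all tested genes. The organic anion carrier Slco1a4 gave -0.65 ± 0.14 (adjusted p = 0.0783) and the pericyte gene Rgs5 gave 0.29 ± 0.10 (adjusted p = 0.508). None of 21 microglia markers was called. Of these 16 were positive, with a median of 0.14 that was 0.09 without replicate 2 of the knockouts. Olfml3 stood at 0.48 ± 0.13 (adjusted p = 0.225) and Cx3cr1 at 0.21 ± 0.08 (adjusted p = 0.713). None of 20 genes of oligodendrocytes and myelin was called either, with a median of 0.06. Whether more cells of a type or more RNA per cell lay behind a level cannot be told apart in bulk tissue.

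The remaining called genes were of mixed function. Higher without mGluR5 were Rpl34, a protein of the large ribosomal subunit (1.06 ± 0.18), the membrane protein Tmem267 (1 ± 0.15), Baalc (0.84 ± 0.13), Myo7a, the myosin of hair cell stereocilia (0.80 ± 0.09), and Hhipl1 (0.78 ± 0.08). The matrix protein Thbs2 (0.71 ± 0.09), the liprin Ppfibp1 (0.65 ± 0.09) and Lsm4, part of the ring that binds U6 RNA (0.48 ± 0.09), were higher too. Ribosomal protein genes have near-identical copies elsewhere in the genome, so the source of the Rpl34 signal is uncertain. Lower were the pseudogene Nlrp5-ps (-1 ± 0.13), the corneal keratin Krt12 (-0.91 ± 0.13), the Wnt antagonist Sfrp1 (-0.88 ± 0.14), Fam163a (-0.78 ± 0.10) and the scaffold Iqgap2 (-0.78 ± 0.12). Ocel1 (-0.75 ± 0.11), the clock factor Arntl2 (-0.70 ± 0.09), the Integrator subunit Ints7 (-0.64 ± 0.10) and C2cd5 (-0.53 ± 0.10) were lower as well. Their adjusted p lay between 0.000384 (Hhipl1) and 0.0345 (Lsm4).

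Genes of glutamate signalling other than Grm5 itself did not pass the test. With 0.299% of all tested genes called, the absence of a call in a short list says little. Of the 6 other metabotropic receptors analysed none was called. Grm8 was 0.23 ± 0.12 higher (limma adjusted p = 0.886), Grm7 stood at -0.17 ± 0.09, Grm2 at 0.16 ± 0.14, Grm6 at 0.05 ± 0.09, and Grm3 and Grm4 at -0.02 each. For Grm3, which lay between 10.72 and 10.97 on the 6 arrays, and for Grm4 the groups overlapped. None of 43 genes for group I receptor coupling and scaffolds was called, with a median of 0.03 that was 0.07 without replicate 2 of the mice with mGluR5 or without replicate 3 of the knockouts. Calm2, which encodes calmodulin, was 12.36, 12.53 and 12.42 with mGluR5 and 12.75, 12.83 and 12.80 without, 0.35 ± 0.09 (adjusted p = 0.144). Rgs2 (0.53 ± 0.20) and Rgs4 (0.23 ± 0.10), which shorten signalling by G proteins, had adjusted p = 0.634 and adjusted p = 0.761. The arrestin Arrb2 stood at 0.19 ± 0.12. None of the 16 ionotropic receptor subunits was called, with a median of 0. The NMDA receptor subunit Grin2b gave -0.19 ± 0.10 (adjusted p = 0.91) and the AMPA receptor subunit Gria2 gave -0.13 ± 0.11 (adjusted p = 0.998).

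Genes further along these pathways did not pass the test either. None of 12 endocannabinoid genes was called (median 0.06). The cannabinoid receptor gene Cnr2, dim at 6.10 to 6.54 on the 6 arrays, gave 0.23 ± 0.10. Cnr1, another cannabinoid receptor gene and outside the naming rule, lay at 9.67 to 9.77 and gave 0.06 ± 0.10. The anandamide hydrolase Faah gave 0.08 ± 0.08 and the 2-arachidonoylglycerol lipase Mgll gave 0.17 ± 0.10. Dagla, the enzyme that makes 2-arachidonoylglycerol, gave -0.12 ± 0.10. None of 20 plasticity kinases and translation factors was called (median -0.01). Of 25 immediate early genes, which neurons switch on with activity, none was called, 14 were negative and the median was -0.09. Nr4a1 was 8.97, 9.16 and 8.96 with mGluR5 and 8.43, 8.51 and 8.21 without. Its groups were 0.46 apart, and the difference of -0.65 ± 0.24 did not pass in the fit over the 12 arrays (limma adjusted p = 0.594), while in the fit on the 6 arrays of Q20 mice alone its adjusted p was 0.0196 and with the spread of each array as a covariate it was 0.0269. Arc stood at -0.38 ± 0.16 (adjusted p = 0.727), Jund at -0.39 ± 0.14 (adjusted p = 0.597) and Junb at -0.23 ± 0.11 (adjusted p = 0.878).

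Genes that mark the identity of projection neurons did not pass the test. None of 36 was called, with 23 positive and a median of 0.03. Pdyn is a member of this list too, and the transcription factor Sp9 gave -0.14 ± 0.08 (limma adjusted p = 0.923). None of 24 genes of dopamine, adenosine and cAMP signalling was called, with a median of 0.07. The calcium-activated adenylyl cyclase Adcy1 was 9.27, 9.23 and 9.03 with mGluR5 and 9.51, 9.59 and 9.59 without, 0.39 ± 0.09 (adjusted p = 0.101). For GABA receptors, synthesis and transport 17 of 18 genes were positive, none was called, and the median was 0.10. Without replicate 2 of the knockouts 12 were positive and the median was 0.05. Gabra5, an alpha subunit of extrasynaptic receptors, stood at 0.58 ± 0.16 (adjusted p = 0.217) and Gad2, which makes GABA, at 0.18 ± 0.11 (adjusted p = 0.948). Of 72 subunits of oxidative phosphorylation 56 were positive, none was called, and the median was 0.11. Here too replicate 2 of the knockouts weighed most, since the median was 0.04 and 43 were positive without it. Replicate 2 also had the highest mean of this list in each group. It was 10.08 and 10.28 in Q20 mice with and without mGluR5, and 10.17 and 10.14 in Q111 mice. The complex I subunit Ndufc2 was 11.83, 11.93 and 11.88 with mGluR5 and 12.28, 12.42 and 12.29 without, 0.45 ± 0.09 (adjusted p = 0.0656), and the complex IV subunit Cox6c stood at 0.33 ± 0.08 (adjusted p = 0.125). After quantile normalization Ndufc2 passed (adjusted p = 0.0212).

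**Figure D3:**
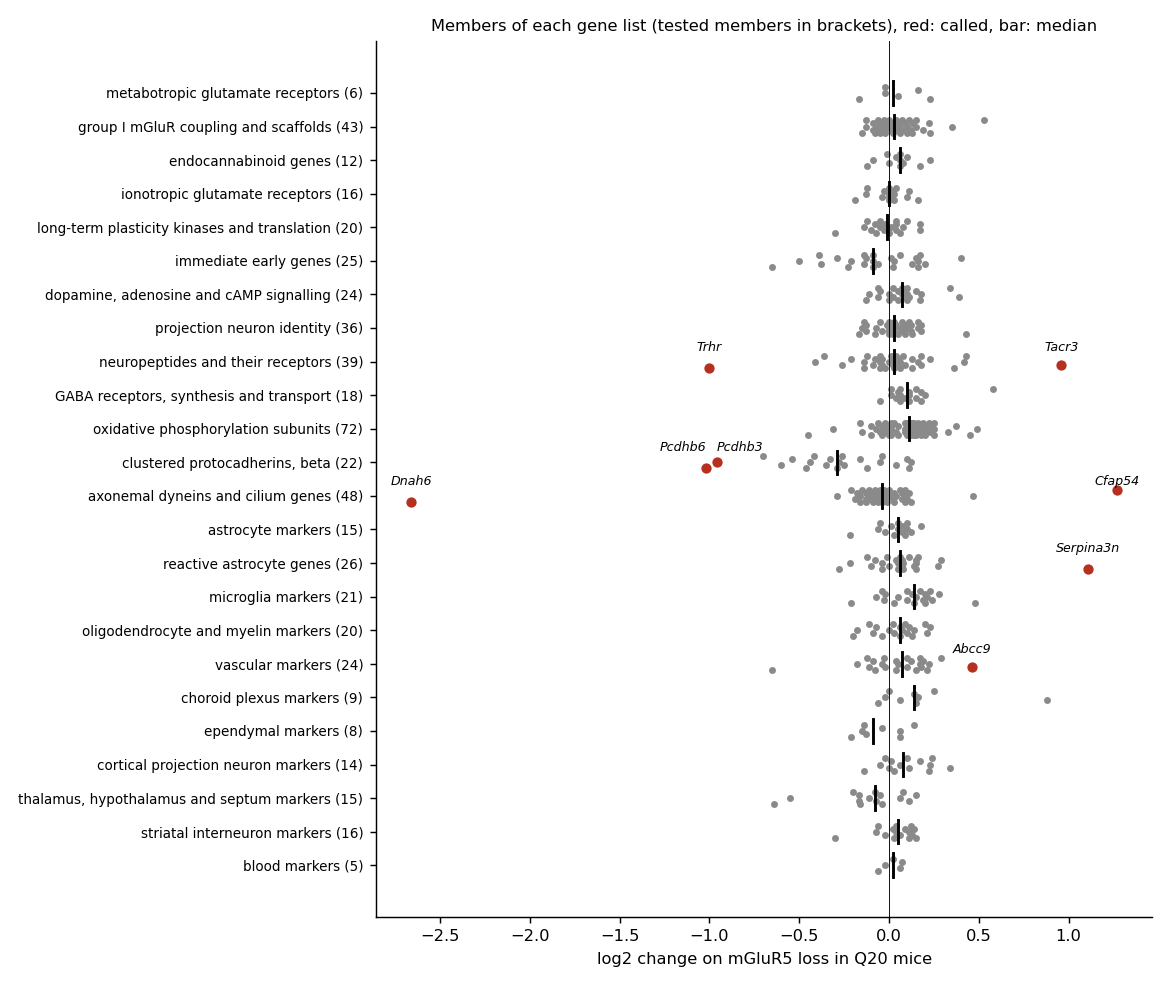
Log2 change on mGluR5 loss in Q20 mice for each tested member of 24 gene lists (points), with called members in red and the list median as a bar. The medians lie between -0.29 (beta protocadherins) and 0.14 (microglia and choroid plexus markers), and 8 members in all are called.

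Lists for other brain regions were read for signs of dissection. None of 15 markers of thalamus, hypothalamus and septum was called. Of these 11 were negative, with a median of -0.08, and the list mean was 7.39 to 7.65 with mGluR5 and 7.34 to 7.45 without. Prkcd gave -0.64 ± 0.21 (limma adjusted p = 0.448), Slc17a6 -0.55 ± 0.22 (adjusted p = 0.702) and Rora -0.20 ± 0.09 (adjusted p = 0.818). For Slc17a6 the knockout mean lay below the filter level, so that its fall has no exact size. None of 14 cortical, 16 interneuron, 9 choroid plexus and 5 blood markers was called. In this order 11, 12, 7 and 3 were positive, with medians of 0.08, 0.05, 0.14 and 0.02. Of the Q20 arrays, replicate 3 of the knockouts was highest for the cortical markers fixed for the tissue check. It had Slc17a7 at 8.35 against 7.39 to 8.26 on the others, Neurod6 at 6.21 against 5.15 to 5.68 and Tbr1 at 6.64 against 5.69 to 6.19. The part of this in the results was not tested.

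Genes beside Grm5 were examined because an allele made in embryonic stem cells carries flanking chromosome of the donor strain along with it. In RefSeq order, the 10 tested genes before Grm5 and the 10 after it held no called gene in Q20 mice. Over all tested genes 0.299% were called, so the absence of a call among so few genes says little. Before Grm5 Folh1 gave 0.21 ± 0.14, Zfand6 0.04 ± 0.09, Fah 0.03 ± 0.10 and Arnt2 0.00 ± 0.08, and after it Ctsc gave 0.28 ± 0.13 (limma adjusted p = 0.843), Rab38 -0.15 ± 0.10, Tmem135 0.00 ± 0.13, Fzd4 -0.06 ± 0.14 and Prss23 0.03 ± 0.13. On chromosome 7 the nearest called gene was Myo7a, 38 tested genes away. It was 7.07, 7 and 6.86 with mGluR5 and 7.79, 7.78 and 7.76 without (0.80 ± 0.09, adjusted p = 0.000768), and it rose by 0.86 in Q111 mice (adjusted p = 0.000234). On the other side the nearest was A230056P14Rik, a long non-coding RNA gene 135 tested genes away, which is outside the naming rule and was picked out after its values were seen. It was 5.96, 5.72 and 5.57 with mGluR5, below the filter level on average, and 6.36, 6.73 and 6.3 without, with a fitted change of 0.72 ± 0.13 (adjusted p = 0.0262) and of 0.53 in Q111 mice (adjusted p = 0.178). Nlrp5-ps lay 664 tested genes away on that side.

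Elsewhere 6 of the 50 lay within 5 tested genes of a second gene that was called. The share over all tested genes was not worked out, so nothing is read from this count. The 6 genes were the pair Pcdhb3 and Pcdhb6, the adjacent Arntl2 and Ppfibp1 on chromosome 6, and Abcc9 and C2cd5 on the same chromosome. Arntl2 and Ppfibp1 changed in opposite directions (-0.70 and 0.65), as did Abcc9 and C2cd5 (0.46 and -0.53).

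A run of miRNA genes on chromosome 12 was singled out after its values had been seen, so its members are described and not tested as a group. The imprinted interval from Meg3 to Dio3 holds a large cluster of miRNA genes that are made from maternally expressed RNA in the brain. Of 37 miRNA genes tested there, 35 were negative in Q20 mice without mGluR5, with a median of -0.37, and 35 were negative under median centring and quantile normalization. Among the 142 tested miRNA genes elsewhere 89 were negative, with a median of -0.06, and none was called. The 2 called genes of the interval were Mir485 and Mir665, while 0.299% of all tested genes were called. Their mature products available here from RefSeq (GRCm38.p6) are printed with their seeds, bases 2 to 8, in capitals. For Mir485 only the 3p product was available. The 3 printed seeds differ.
miR-485-3p: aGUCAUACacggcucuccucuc
miR-665-3p: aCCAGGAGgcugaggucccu
miR-665-5p: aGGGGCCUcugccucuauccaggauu
Mir485 (chr12:109734946-109734967 for the 3p product, plus strand) was 9.57, 9.65 and 9.71 with mGluR5 and 8.83, 8.60 and 8.81 without, a change of -0.90 ± 0.10 (limma adjusted p = 0.000385). Mir665 was 8.76, 8.79 and 8.89 with mGluR5 and 8.02, 7.75 and 7.91 without, a change of -0.92 ± 0.12 (adjusted p = 0.00275). The groups were 0.74 apart for both. The mean of the 37 genes was 8.03, 8.13 and 8.17 with mGluR5 and 7.81, 7.57 and 7.80 without, and on the arrays of Q111 mice it lay between 7.80 and 8.27. In Q111 mice the median change was -0.08. Meg3, at the start of the interval, gave -0.24 ± 0.09 (adjusted p = 0.679). Rian, a further RNA gene within it, gave -0.04 ± 0.13 (adjusted p = 0.998). Dio3 at the other end gave 0.53 ± 0.18 (adjusted p = 0.492). Its mean with mGluR5 lay below the filter level, so that the rise has no exact size. The array does not show whether a precursor, a host transcript or the mature RNA gave the signal.

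**Figure D4:**
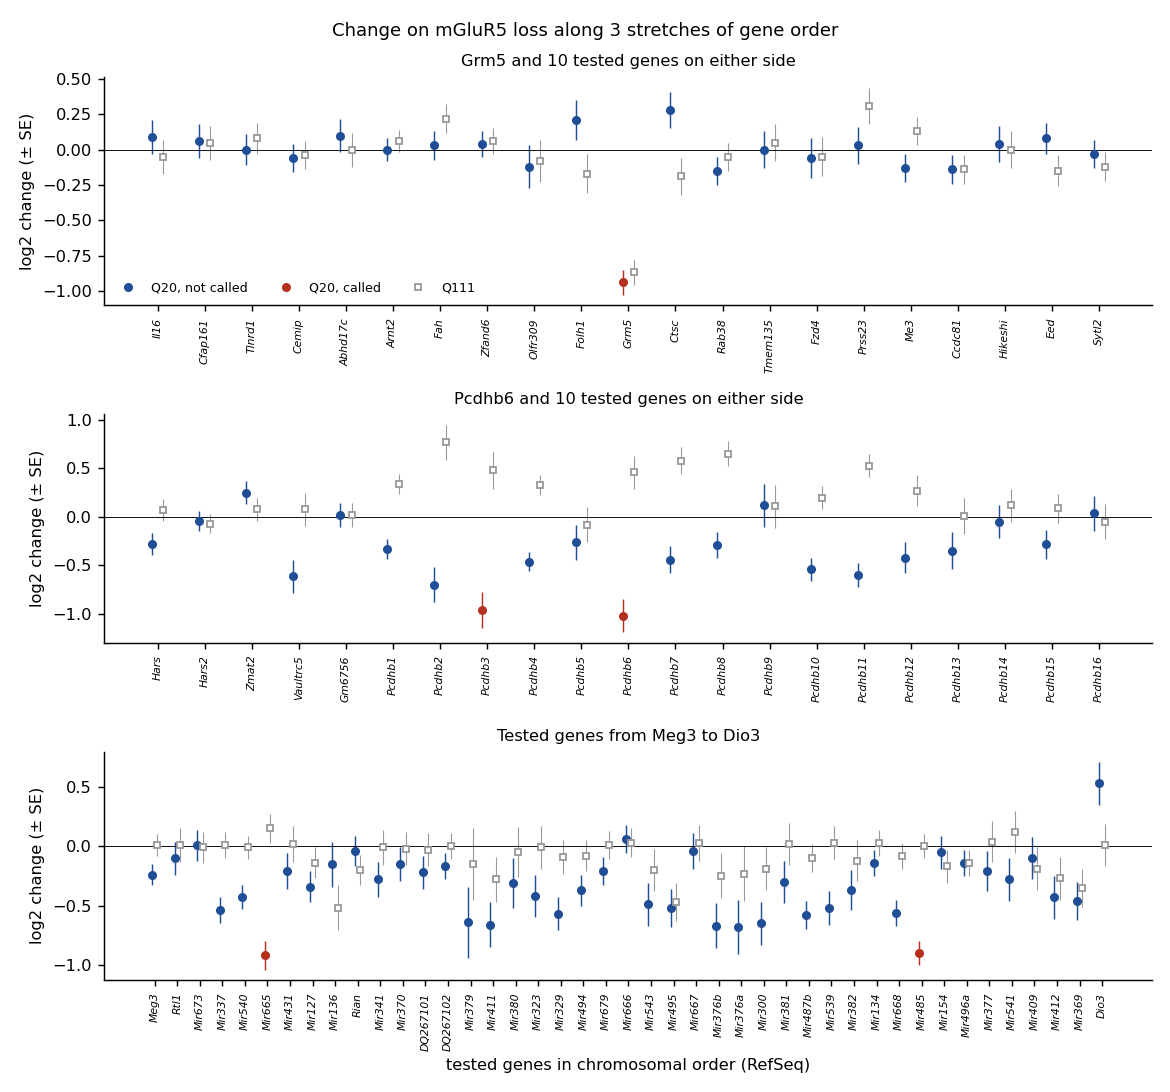
Log2 change on mGluR5 loss (± SE) along the tested genes around Grm5, around Pcdhb6 and from Meg3 to Dio3, in Q20 mice (filled) and Q111 mice (open squares). Grm5 is the sole called gene of its stretch, while 0.299% of all tested genes were called. Most beta protocadherins and 35 of 37 miRNA genes lie below 0 in Q20 mice.

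The loss of mGluR5 was then read in Q111 mice. Their 6 arrays give no level in the Q20 contrast, but they share its fit, its estimate of the spread, and the choice of probe sets and tested genes. The fit on the 6 arrays of Q20 mice alone called 72 genes, 49 of the 50 among them. In Q111 mice 46 genes were called (0.275%) in the fit over all arrays. The arrays with and without mGluR5 did not overlap in Q111 mice for 20 of the 49 Q20 genes other than Grm5, and for 7.46% of all tested genes. The Q111 arrays entered the spread by which the 49 were called, so the 2 shares are not compared. The genes called in both numbered 7, which is 14.0% of the 50 and 15.2% of the 46. Grm5 (-0.94 in Q20 and -0.87 in Q111 mice), Myo7a (0.80 and 0.86), Slc38a11 (-0.63 and -0.67) and Serpina3n (1.11 and 2.45) moved the same way. Dnah6 (-2.66 and 2.35), Cfap54 (1.27 and -1.83) and Abhd10 (0.70 and -0.65) moved in opposite directions. Of the 49 called genes other than Grm5, 21 had the same sign in Q111 mice (42.9%, against 51% of all genes) and 28 the opposite sign. Across these 49 genes, which are not independent, the changes in the 2 genotypes had Pearson r = -0.30 and Spearman rho = -0.35. Their median size was 0.78 in Q20 mice, by which they were chosen, and 0.18 in Q111 mice.

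The difference between the 2 changes was tested in the same fit. It was called for 73 genes (0.437%), of which 32 were among the 50. The count was 44, 40 and 34 without replicates 2 and 3 of the Q20 mice with mGluR5 and without replicate 1 of the Q20 knockouts. Since the test of the difference uses the Q20 arrays that chose the 50 genes, the overlap is a description. Among the 50, the largest differences were in Dnah6 (-5.01, limma adjusted p = 1.04e-09), Cfap54 (3.10, adjusted p = 1.65e-06) and Nt5dc3 (-1.62, adjusted p = 0.000656). Nt5dc3 changed by -0.07 in Q111 mice. For Serpina3n the rise was 1.34 larger in Q111 mice (adjusted p = 0.00153). For Grm5 (-0.07) and Myo7a (-0.06) the difference had an adjusted p of 1. Slc38a11 was below the filter level in both knockout groups, so its 2 changes cannot be compared in size.

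**Figure D5:**
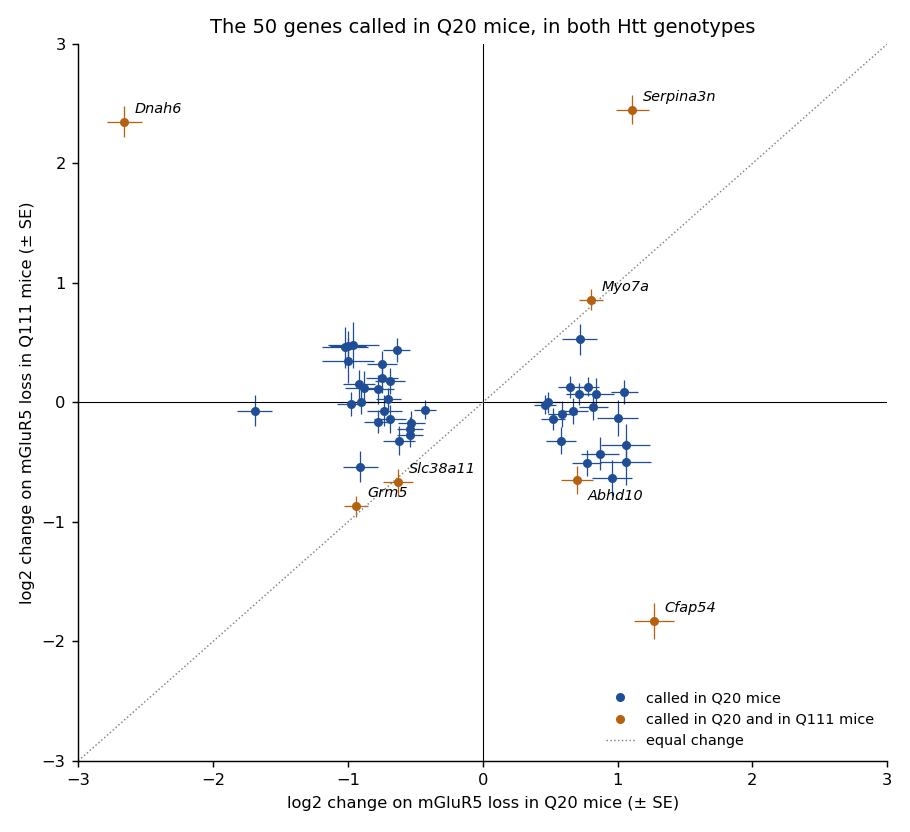
Log2 change on mGluR5 loss in Q111 mice (vertical axis, ± SE) against that in Q20 mice (horizontal axis, ± SE) for the 50 genes called in Q20 mice, with the 7 called in both in orange. Most points lie near 0 on the vertical axis, Grm5 and Myo7a lie close to the line of equal change, and Dnah6 and Cfap54 lie far from it.

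The levels of the changed genes in Q20 mice were also set beside those in Q111 mice. For 27 of the 49 called genes other than Grm5 the mean of the 6 Q111 arrays lay nearer to Q20 mice with mGluR5, and for 22 it lay nearer to those without. In 19 genes the 3 Q20 knockout arrays stood apart from all 9 others. This held for 387 tested genes, 2.31% of all and 18.1% of the 2142 whose Q20 groups did not overlap. The called genes were chosen by their Q20 values and all belong to those 2142, so nothing is read from the count. Examples were Nt5dc3, which was 8.65 to 9.17 in Q111 mice, and Idua, Arntl2, Hhipl1 and Ppfibp1. In 16 genes the 3 arrays of Q20 mice with mGluR5 stood apart from all 9 others, which held for 1.39% of all tested genes and 10.8% of the 2142, and the same limit applies. Hpgd was such a gene, at 7.6 to 7.92 in Q111 mice of either receptor genotype, near the 7.80 to 8.04 of Q20 knockouts and above the 6.78 to 6.89 of Q20 mice with mGluR5. Q20 mice with mGluR5 also stood apart in Baalc and Fut10, as the lower group, and in Nlrp5-ps, Sfrp1 and Slc15a2, as the higher group. Fam163a and Lsm4 are counted in both sets, and in 16 genes neither group stood apart.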

How the data were processed

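Total RNA of dissected striatum was labelled for an Affymetrix whole-transcript array, per the labels' protocols. The authors deposited log2 signals from RMA and Partek, per the submitters' processing notes, which give no versions. The series' design text names Partek Genomics Suite 6.5, an ANOVA p below 0.05 and a 1.5-fold change. RMA equalizes array distributions, which can hide a global shift. The genome build is not given in the sources used here. Of 35556 probe sets 21789 had 1 gene symbol in the platform annotation, 1621 several and 12146 none. Each of the 19938 genes was read from its brightest probe set, by the mean of the 12 arrays, and 16721 were tested, those above the 25th percentile of the array in at least 3 arrays.

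The fit used limma 3.58.1 in R 4.3.3 over all 12 arrays with a mean for each of 4 groups (8 residual degrees of freedom, prior 6.88). Tests were two-sided and adjusted by Benjamini-Hochberg over the tested genes. The named genes were Grm5, Htt, every called gene but predicted and small non-coding RNA genes, up to 8 members of a list (otherwise the 4 with the smallest p) and 5 genes on either side of Grm5. Not every list member the rule allows is described, and genes named outside it are marked as such. The members, gene lists and naming rule were chosen with earlier results of these data known. On data simulated for this comparison over 16721 genes, 67% of 200 genes changed 1.5-fold were recovered with 3 false calls, and 96% changed 2-fold with 13. The simulated noise was normal and independent between genes, without deviations shared across an array. These rates are therefore not error rates of the calls on the real arrays. Arrays hold no counts, and their number limits the precision. Plots were made in Python 3.11.15 (matplotlib 3.10.9).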

Additional observations from a re-analysis of the deposited data

Results flagged for a closer look

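The change on mGluR5 loss differed between Q20 and Q111 mice, by limma's test of the difference, for 32 of the called genes described above. The values that follow are the log2 change in Q20 mice minus that in Q111 mice, with adjusted p from 1.04e-09 for Dnah6 to 0.0453 for Trhr and Npl. These genes were chosen by their Q20 values, which enters the difference, and its causes were not tested. Trhr lay below the filter level in Q20 knockouts and in Q111 mice with mGluR5, so that its difference has no exact size.

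The difference was below 0 for 17 genes. It was -5.01 for Dnah6, -1.62 for Nt5dc3, -1.48 for Pcdhb6, -1.46 for Nlrp5-ps, -1.45 for Pcdhb3 and -1.34 for Trhr. It was -1.08 for Mir665 and Ints7, -1.07 for Ocel1, -1 for Sfrp1, -0.97 for Idua and -0.95 for Slc15a2. It was -0.90 for Mir485, -0.89 for Iqgap2, -0.88 for Kcnn2 and -0.73 for Arntl2. Serpina3n, at -1.34, is the gene of these that rose in both genotypes, and more in Q111 mice.

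It was above 0 for 15 genes. Cfap54 had 3.10, Tacr3 1.59, Aldh7a1 1.56, Rpl34 1.42, Abhd10 1.34, Timmdc1 1.29 and Cpq 1.28. Tmem267 had 1.12, Hpgd 0.97, Sstr5 0.90, Fut10 0.86, Npl 0.75, Xdh 0.66, Hhipl1 0.65 and Thbs2 0.64.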

How the results depend on the processing

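No called gene named above changed direction in any of the 20 alternatives. Of 48, 13 were called in every alternative in which they were tested (Arntl2, Dnah6, Fam163a, Grm5, Hhipl1, Hpgd, Idua, Mir485, Myo7a, Nt5dc3, Ppfibp1, Serpina3n and Thbs2). These and Cfap54, Cpq, Fut10, Krt12, Mir665, Nlrp5-ps and Ocel1 were called in each of the 6 fits with 1 array left out, and the other 28 lost their call in 1 to 6 of them. Some list members that did not pass in the main fit were called in alternatives other than the array weights. Among them were Pcdhb11, Pcdhb10, Ndufc2, Cox6c, Adcy1, Gabra5, Cfap46, Slco1a4, Calm2 and Nr4a1. The number called in Q20 mice (50) was 25 to 41 with 1 array left out, 19 without moderation, 84 with an intensity trend, 76 after quantile normalization and 213 with each array's interquartile range as a covariate. With limma's array weights it was 2120, but the default algorithm stopped before its tolerance. The gene-by-gene method, added after that was seen, gave 410. Neither is used for a call. The number called for the difference between genotypes (73) was 34 to 62 with 1 of the 6 Q20 arrays left out (the Q111 arrays were not left out), 19 without moderation, 165 by the authors' criteria, 153 with the covariate, 495 with gene-by-gene weights and 41 when every probe set was tested. The causes were not tested. With the replicate number as a block 129 genes were called in Q20 mice, the 50 among them. Same-numbered arrays of the 2 Q20 groups had correlations of 0.13, 0.44 and -0.02 between their deviations from the group means. Not every array correlated best with its own number, and the main fit did not pair the samples by number. However, replicate 2 had the lowest median and the widest interquartile range in each of the 4 groups. That range was 2.88 and 2.95 in Q20 mice with and without mGluR5, and 2.93 and 2.80 in Q111 mice. What same-numbered arrays may share was not tested. Of the list medians under the alternatives 262 moved by less than the spread between arrays and 13 by more.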
